A study of Mus musculus with 8 samples.

Results

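The endoplasmic reticulum (ER) genes described here are 30 genes of the unfolded protein response and of ER protein folding and degradation, taken by gene symbol from a table of 53801 genes. All 30 symbols were found in the table, and 29 of them passed the expression filter and were tested. The exception was Chac1. RNA was sequenced from 8 libraries of stromal cells of mouse small intestine, negative for the haematopoietic marker CD45 and the endothelial marker CD31. The cells came from LTβRYFP mice and were split by sorting into 4 libraries that carried the YFP signal (YFP+) and 4 that did not (YFP-). All 8 libraries therefore share the reporter strain, the tissue and the sorting gates, and no age, treatment or number of animals per library is given in the sources used here. The sample titles give the opposite YFP sign to the descriptions and genotypes in all 8 samples. Groups follow the descriptions and genotypes, so all directions given here depend on the titles being the labels in error.

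Proteins that enter the secretory pathway fold in the ER. When unfolded protein builds up there, the membrane sensors IRE1, PERK and ATF6 start the unfolded protein response, which slows translation and raises the RNA of chaperones and of factors that send misfolded protein for degradation. PERK also feeds the integrated stress response, in which ATF4 and CHOP (Ddit3) act on genes of amino acid supply and on the feedback inhibitor GADD34 (Ppp1r15a). Fibroblasts are secretory cells that make much of the gut's collagen and so have a large ER folding load.

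Between the fractions, 5 of the 29 tested members were lower in YFP+ and 0 were higher in edgeR's quasi-likelihood test, with replicate number as a block and p-values adjusted over 16354 genes (Benjamini-Hochberg). The 5 were the sensor gene Ern1, the transcription factor gene Ddit3, the stress effectors Trib3 and Ppp1r15a, and Derl1, a degradation channel gene. Over all tested genes 11.5% passed, with 3.65% higher and 7.85% lower, against 17.2% of the members, all of them lower. The members' share rests on 5 genes, and the shares were not compared by a test. Members with an unadjusted p under 0.05 numbered 12, a share of 41.4% against 22.8% of all genes. The median log2 fold change of the members was 0.02, and that of all tested genes was 0.01. Without the block 0 members passed by edgeR, where 4.26% of all genes did. The edgeR adjusted p of Trib3 was then 0.0783, with an SE of 0.62 in both fits, and those of the other 4 ran from 0.284 (Derl1) to 0.407 (Ern1), with larger SEs than in the fit with the block. Trib3 passed without the block when YFP- replicate 4 or YFP+ replicate 1 was left out (edgeR adjusted p = 0.0420 and 0.0378). With both libraries of 1 number left out, 1 to 3 of the 5 passed: Ern1 and Derl1 without replicate 1, these and Ppp1r15a without replicate 2, Ddit3 without replicate 3, and Trib3 without replicate 4. A larger difference separated the replicate numbers, and it is described after the fractions.

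Motifs that factors of the response are known to bind were looked for in RefSeq promoters (GRCm38.p6, 250 bases before to 50 after a start), which were matched for 25 of the 30 members. The ER stress response element (ERSE), which is CCAAT and CCACG separated by 9 bases and was sought on both strands like the others, lay in 6 of 26 member promoters (23.1%) and in 39 of all 32851 promoters (0.119%). The related ERSE-II, ATTGG and CCACG separated by 1 base, lay in 1 member promoter, that of Herpud1, and in 0.0365% of all promoters. These motifs can overlap in principle, but no member promoter held both. The core of the amino acid response element, TTGCATCA, was found for Chac1 and Herpud1 and in 0.895% of all promoters. The XBP1 element TGACGTGG was found in 0 member promoters and in 0.676% of all. Members without an entry were Atf6, Derl1, Hyou1, Manf and Sec61a1. The members were listed as genes of this response, with its known targets among them. Their share of these motifs is therefore not an independent finding.

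The sequences upstream of the 7 members with an ERSE or ERSE-II are shown so that the match can be seen in its place. Of these 7 genes, 6 passed the test between replicate numbers described further on, as did 20 of all 29 tested members. Sdf2l1 had the widest gap between replicate numbers among the folding enzymes and chaperones. It had a promoter entry and none of the 4 motifs. Derl3 and Chac1, both at low counts, had wider gaps and each held a motif. Each sequence runs 5′ to 3′ on the gene's strand, ends before the first annotated exon base, and has the ERSE or ERSE-II in capitals. A match is a description of letters, not of a bound site. Calr lies on the minus strand (chr8:84846935-84847131), as does Canx (chr11:50325674-50325873). The others are on the plus strand, at chr12:17266389-17266544 for Pdia6, chr15:88819446-88819645 for Creld2, chr19:6046376-6046575 for Syvn1, chr10:75893198-75893397 for Derl3 and chr8:94386229-94386428 for Herpud1.
Calr: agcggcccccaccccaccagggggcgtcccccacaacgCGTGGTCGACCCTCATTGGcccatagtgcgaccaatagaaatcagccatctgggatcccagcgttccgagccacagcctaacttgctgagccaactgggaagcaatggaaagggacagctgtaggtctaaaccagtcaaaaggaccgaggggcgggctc
Canx: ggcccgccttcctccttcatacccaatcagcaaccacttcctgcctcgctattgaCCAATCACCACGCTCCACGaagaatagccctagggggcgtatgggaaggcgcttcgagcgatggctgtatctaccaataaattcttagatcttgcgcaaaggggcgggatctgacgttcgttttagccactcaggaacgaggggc
Pdia6: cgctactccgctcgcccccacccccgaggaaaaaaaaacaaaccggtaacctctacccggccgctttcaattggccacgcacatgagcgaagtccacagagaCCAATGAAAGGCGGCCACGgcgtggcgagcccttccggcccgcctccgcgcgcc
Creld2: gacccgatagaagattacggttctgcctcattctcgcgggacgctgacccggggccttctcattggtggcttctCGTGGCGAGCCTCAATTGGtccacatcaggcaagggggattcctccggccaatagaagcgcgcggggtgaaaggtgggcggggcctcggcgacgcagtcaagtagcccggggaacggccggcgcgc
Syvn1: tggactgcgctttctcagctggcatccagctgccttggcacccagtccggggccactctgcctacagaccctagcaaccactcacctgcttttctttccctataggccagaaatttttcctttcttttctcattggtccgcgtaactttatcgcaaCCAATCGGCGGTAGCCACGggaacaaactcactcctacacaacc
Derl3: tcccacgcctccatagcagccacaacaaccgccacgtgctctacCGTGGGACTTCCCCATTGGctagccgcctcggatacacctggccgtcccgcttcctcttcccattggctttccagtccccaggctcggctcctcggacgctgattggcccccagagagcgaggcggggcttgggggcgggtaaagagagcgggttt
Herpud1: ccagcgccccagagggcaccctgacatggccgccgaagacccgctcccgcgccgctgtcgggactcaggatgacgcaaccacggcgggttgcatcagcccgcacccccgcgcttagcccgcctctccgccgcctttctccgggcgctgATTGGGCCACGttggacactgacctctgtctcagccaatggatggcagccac

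Levels are given in CPM, counts scaled to the size of each library, and between genes as CPM per kilobase of exon. Calr, a calcium-binding lectin chaperone, stood highest at 256 CPM per kb over all 8 libraries. P4hb followed at 185 and Pdia3 at 148 CPM per kb, both protein disulfide isomerases, then Ppp1r15a at 117 CPM per kb. Among the transcription factors Atf4 had 75.4, Xbp1 49.2 and Ddit3 18.4 CPM per kb. The sensors were lower and close to each other, with 15.1 CPM per kb for Ern1, 14.2 for Eif2ak3 and 11.1 for Atf6. Asns (0.767), Trib3 (0.473), Derl3 (0.287) and Chac1 (0.214 CPM per kb) were barely detected.

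All 3 sensor genes had negative estimates, and Ern1 was the 1 that passed. Ern1, which encodes the kinase and RNase IRE1, had 114, 99.3, 109.9 and 132 CPM in YFP+ replicates 1 to 4 and 116, 112, 142 and 161 CPM in the YFP- libraries. Each YFP+ library was below the YFP- library of its number, by the least in replicate 1, while the groups as a whole overlapped. The log2 fold change of Ern1 was -0.21 (SE 0.06, edgeR adjusted p = 0.0256). Atf6, the sensor that is cut in the Golgi to release a transcription factor, had 107, 96.4, 85.3 and 98.2 CPM in the YFP+ libraries against 115, 111, 101 and 106 CPM in the YFP- libraries. It was lower in YFP+ in 4 of 4 pairs and did not pass (log2 fold change -0.17, SE 0.06, edgeR adjusted p = 0.0797). Eif2ak3, which encodes PERK, had 96.4, 69.2, 77.7 and 85.3 CPM in the YFP+ libraries and 111, 78.1, 86.4 and 82.4 CPM in the YFP- libraries. Pair 4 went the other way from the rest, and the gene did not pass (log2 fold change -0.12, SE 0.07, edgeR adjusted p = 0.281).

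The transcription factor genes did not share a direction. Ddit3, which encodes CHOP, a factor linked to cell death under lasting stress, was at 34.1, 21.3, 27.9 and 28.5 CPM in the YFP+ libraries and at 47.6, 30.3, 29.8 and 33.0 CPM in the YFP- libraries. All 4 pairs were lower in YFP+, and YFP- replicate 1 lay above every other library. Its log2 fold change was -0.32 (SE 0.10, edgeR adjusted p = 0.0312). Atf4, the central factor of the integrated stress response, had 194, 144, 160.4 and 176 CPM in the YFP+ libraries and 208, 156, 192 and 191 CPM in the YFP- libraries. It was lower in 4 of 4 pairs but did not pass (log2 fold change -0.15, SE 0.06, edgeR adjusted p = 0.0895). Xbp1, whose RNA is spliced by IRE1 to make an active factor, had 199, 157, 163 and 150.1 CPM in the YFP+ libraries against 185, 134, 152 and 137 CPM in the YFP- libraries. It was higher in 4 of 4 pairs and also did not pass (log2 fold change 0.14, SE 0.06, edgeR adjusted p = 0.116). Gene counts do not separate spliced from unspliced Xbp1 RNA. Of Ddit3's exonic bases, 3.97% overlap Mars on the opposite strand, and the strand setting of the counting is not given in the sources used here. A further 105 bases (6.13%) are shared on the same strand with a second annotated gene of that symbol, whose exons lie wholly within them. Where a symbol matched several entries, the entry with the most counts was used. Exons of 9 members overlap a gene on the opposite strand, by at most 8.155% of their bases. That share is reached by Sec61a1, which did not pass. The called members among the 9 are Ddit3 and Ppp1r15a.

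**Figure D1:**
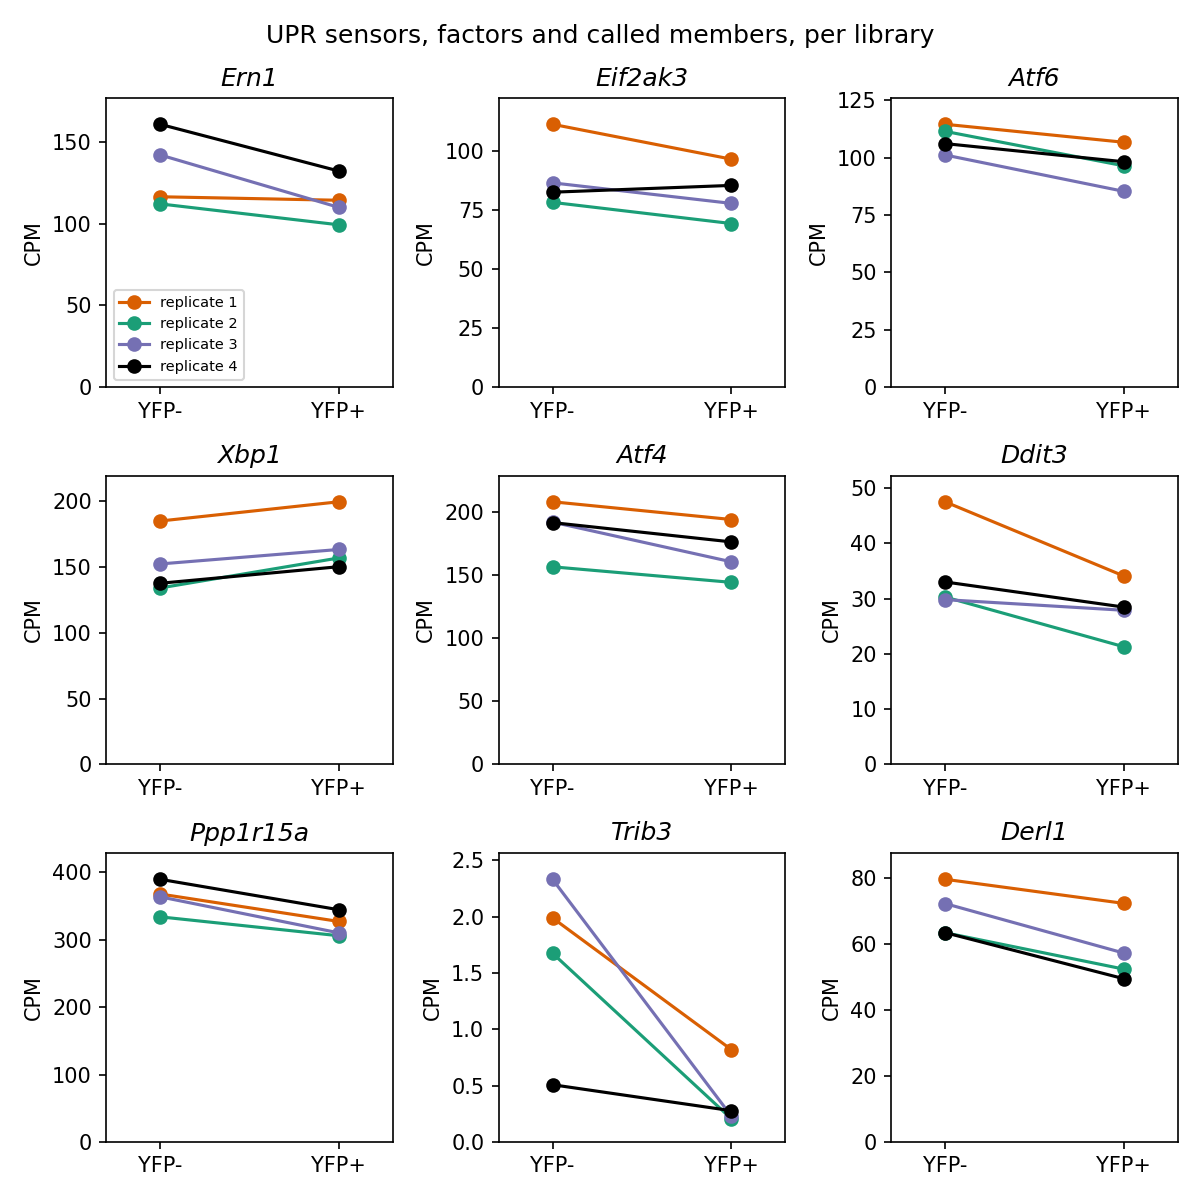
Levels in CPM (linear axis from 0) of the sensor genes, the transcription factor genes and the other 3 called members in each library; each line joins the YFP- and YFP+ library of one replicate number. All lines fall for the called Ern1, Ddit3, Ppp1r15a, Trib3 and Derl1, and also for Atf4 and Atf6, which did not pass. All rise for Xbp1. Replicate 1 is the highest line for Xbp1, Atf4, Atf6, Eif2ak3, Ddit3 and Derl1.

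The 4 tested stress effectors had negative estimates, and Ppp1r15a and Trib3 passed. Ppp1r15a, which encodes GADD34 and restarts translation by undoing the PERK signal, had 327, 306, 310.3 and 345 CPM in the YFP+ libraries and 368, 334, 364 and 389.9 CPM in the YFP- libraries. Every pair was lower in YFP+ by a similar amount, and the groups overlapped. The log2 fold change was -0.18 (SE 0.05, edgeR adjusted p = 0.0202). Trib3, a pseudokinase induced by ATF4 and CHOP, had 22, 5, 7 and 8 counts in YFP+ and 45, 40, 54 and 14 counts in YFP-. In CPM these were 0.819, 0.206, 0.229 and 0.277 against 1.99, 1.68, 2.33 and 0.508, with replicate 4 the lowest of YFP-. Its log2 fold change of -2.09 had an SE of 0.62 (edgeR adjusted p = 0.0267), and the low counts keep it imprecise.

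Sesn2, a stress-induced regulator of growth signalling, had 7.15, 10.3, 9.17 and 10.8 CPM in the YFP+ libraries and 11.9, 11.2, 11.1 and 13.2 CPM in the YFP- libraries. The groups did not overlap, yet the gene did not pass (log2 fold change -0.35, SE 0.15, edgeR adjusted p = 0.161). Asns, which encodes asparagine synthetase, was lower in 4 of 4 pairs and did not pass (log2 fold change -0.76, SE 0.38, edgeR adjusted p = 0.239). Chac1, a glutathione-degrading enzyme gene, had 24, 11, 5 and 10 counts in YFP+ and 13, 0, 1 and 9 in YFP- and was too low to be tested.

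Early-response genes, which cell isolation can switch on, were mostly lower in YFP+ as well. Of 17 tested early-response genes, 14 fell and 0 rose by the same test, and their summed level ran from 9564 to 10195 CPM in the YFP+ libraries and from 12011 to 14299.9 CPM in the YFP- libraries. None of them was at 0, the most abundant being Egr1 (log2 fold change -0.36) and Fos (-0.41). Their part in the lower Ddit3, Ppp1r15a, Trib3, Ern1 and Derl1 was not tested. Among 10 tested stromal markers 5 fell and 1, Pdgfrb, rose (log2 fold change 0.29). Their sums ran from 35496 to 39159 CPM in the YFP+ libraries and from 40458 to 47749 CPM in the YFP- libraries. Col3a1 and Col1a1 were the most abundant, while Thy1 was barely detected, at 3 to 53 counts a library. Apart from Thy1, the listed markers of the labelled cell type were all well detected. Of 10 enteric glial genes 9 fell, with sums of 9.05 to 11.7 CPM in the YFP+ libraries against 127 to 202 CPM in the YFP- libraries. Of 10 epithelial genes 6 fell, with sums of 19.9 to 27.9 against 42.2 to 89.6 CPM. Of 8 smooth muscle genes 7 rose, of 9 mitochondrially encoded genes all 9 fell, and of 6 endothelial genes 3 fell. The part of these lists in the members' differences was not tested either, and in bulk RNA fewer cells of a type and less RNA per cell cannot be told apart.

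None of the 10 folding enzymes and chaperones passed, nor did the translocon gene, by edgeR with the block. DESeq2 and limma-voom with the block also called 0 of them, and 2 of the 10 had an edgeR p under 0.05 before adjustment. The largest estimate was that of Hyou1, an ER chaperone of the Hsp70 family, with a log2 difference of 0.15 (SE 0.06, edgeR adjusted p = 0.138). Pdia6, a disulfide isomerase that can switch off IRE1, had 0.14 (SE 0.06, edgeR adjusted p = 0.147) and was higher in 4 of 4 pairs. Calr was at 750.3 ± 204 CPM in the YFP+ libraries and 726 ± 219 CPM in the YFP- libraries (SD, 4 libraries each), a log2 difference of 0.06 (SE 0.05). Its membrane-bound partner Canx was at 380.3 ± 59.0 and 374 ± 58.9 CPM (SD, 4 libraries each), with 0.02 (SE 0.05). P4hb, which also serves as a subunit of collagen prolyl hydroxylase, had 0.03 (SE 0.05), Pdia3, which works with the lectin chaperones, 0.06 (SE 0.05), and Pdia4 0.05 (SE 0.06). For these 5 genes the SE was small beside the spread of the libraries, because the block takes up what a pair shares. Creld2 (0.14) and Manf (0.07), both secreted ER stress proteins, and Sdf2l1 (-0.04), a BiP cofactor, had SEs of 0.09, 0.07 and 0.17. Sec61a1, the channel subunit through which proteins enter the ER, had 0.02 (SE 0.06).

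Of the 8 genes of ER-associated degradation, Derl1 was the 1 that passed. Derl1, a membrane protein through which misfolded proteins leave the ER, had 72.3, 52.4, 57.3 and 49.5 CPM in the YFP+ libraries and 79.6, 63.4, 72.3 and 63.5 CPM in the YFP- libraries. All 4 pairs were lower in YFP+, although YFP+ replicate 1 reached the level of YFP- replicate 3. The log2 fold change was -0.28 (SE 0.07, edgeR adjusted p = 0.00832), the smallest adjusted p among the members. Its relatives did not pass, Derl2 with 0.21 (SE 0.12, edgeR adjusted p = 0.329) and Derl3, at 3 to 36 counts a library, with 0.53 (SE 0.79). Whether Derl1 and Derl2 differ in their response was not tested.

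Os9, a lectin that hands misfolded glycoproteins to the ubiquitin ligase, had 144, 144, 145 and 144 CPM in the YFP+ libraries and 140.1, 122, 129 and 138 CPM in the YFP- libraries. The groups did not overlap, and the gene did not pass (log2 fold change 0.13, SE 0.06, edgeR adjusted p = 0.192). Os9 and Sesn2 were the 2 members whose groups did not overlap, 6.90% of those tested against 9.64% of all genes. The ligase gene Syvn1 had a log2 difference of -0.13 (SE 0.08), its partner Sel1l 0.04 (SE 0.06), the stress-induced adaptor Herpud1 -0.07 (SE 0.07) and the mannosidase-like Edem1 0.01 (SE 0.06), with edgeR adjusted p from 0.347 to 0.958.

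**Figure D2:**
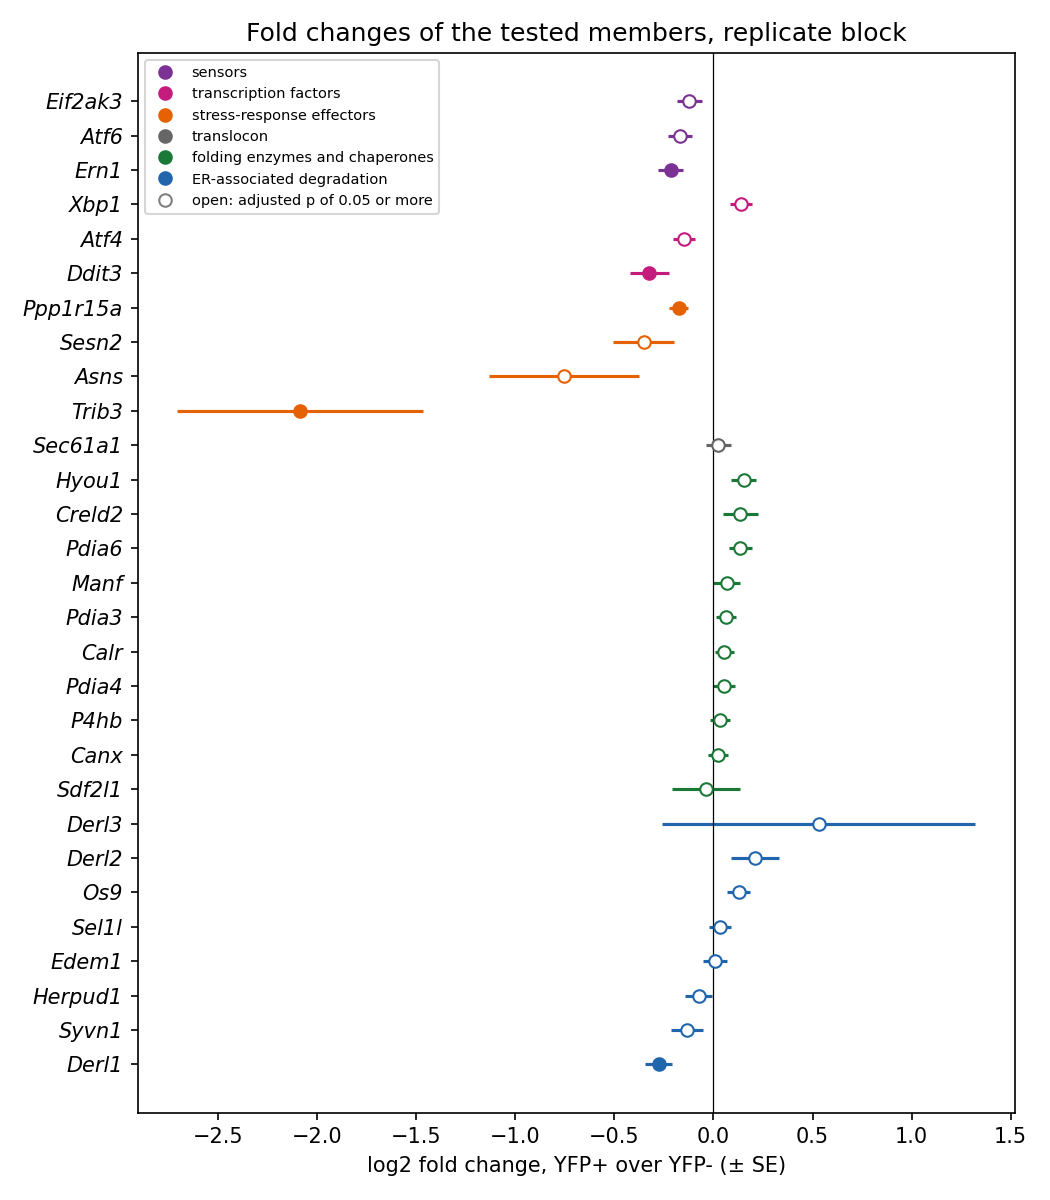
Log2 fold change of YFP+ over YFP- with its SE for the 29 tested members, coloured by role; filled points passed at an adjusted p of 0.05 and open points did not. The 5 filled points, Ern1, Ddit3, Ppp1r15a, Trib3 and Derl1, all lie left of 0, and the 10 folding genes lie between -0.04 and 0.15.

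Other genes of the pathway were taken from a list of 140, of which 135 were tested, and 7 fell and 0 rose by the same test (5.19%, against 11.5% of all genes). Without the block 4 fell. Atf3, a stress factor that is also an early-response gene, fell from 671 ± 40.6 CPM in the YFP- libraries to 485 ± 24.4 CPM in the YFP+ libraries (SD, 4 libraries each; log2 fold change -0.47, edgeR adjusted p = 1.17e-07). Vldlr, a lipoprotein receptor gene known to respond to ATF4, had a log2 difference of -0.80 (edgeR adjusted p = 6.11e-08). Hspa5, which encodes BiP, the main ER chaperone and the partner of all 3 sensors, fell by 0.17 on the log2 scale (edgeR adjusted p = 0.0265), and Creb3l1, an ER-bound factor of collagen secretion, by 0.21 (edgeR adjusted p = 0.0182). Slc7a5, Psat1 and Gpt2, of amino acid transport and metabolism, made up the 7. In the roles where no gene passed, the most abundant were Stt3b (0.07), of N-glycan transfer, Ssr3 (-0.03), of translocation, Ubxn4 (0.10), of degradation, and Ppp1r15b (-0.05), of the integrated stress response.

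The replicate numbers differed far more than the fractions did in the chaperone genes. In the same fit, an F test of the replicate number, chosen after the values were seen, passed for 20 of the 29 tested members, where 9.2% of all genes passed. Replicate 1 was the highest of its group in both fractions for 23 of the 29, a pattern held by 9.53% of all genes. This number, too, was picked for the count after the values were seen. Where a gene averaged 10 CPM or more, the test passed for 19 of 25 members against 14.6% of 8996 genes, and replicate 1 was highest in both for 21 of 25 against 12% of those genes. Libraries with the same number correlated in their deviations from the group means at 0.38 to 0.64 over 5258 genes, and those with different numbers at -0.42 to 0.05.

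All 10 folding enzymes and chaperones passed this test, and in all 10 both replicate 1 libraries were the highest of their group. Among these 10, Sdf2l1 showed the widest gap. It had 17.2 CPM in both replicate 1 libraries, 7.04 and 5.83 CPM in replicate 3, and 3.87 to 4.99 CPM in replicates 2 and 4. Its highest pair mean was 4.39 times its lowest (edgeR adjusted p = 1.69e-06 for the replicate number). Hyou1 had 174 CPM in the YFP+ libraries and 175 CPM in the YFP- libraries in replicate 1, 117 and 108 CPM in replicate 3, 84.1 and 67.6 CPM in replicate 2, and 78.8 and 69.1 CPM in replicate 4. The pair means spanned 2.37-fold (edgeR adjusted p = 5.42e-10). Creld2 spanned 2.40-fold, Manf 2.15-fold, Calr 1.78-fold (edgeR adjusted p = 3.71e-09), Pdia4 1.66-fold and Pdia6 1.59-fold. Canx, P4hb and Pdia3 had narrower spans of 1.36, 1.27 and 1.27.

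All 3 transcription factor genes passed as well, with spans of 1.58-fold for Ddit3, 1.34-fold for Xbp1 and 1.34-fold for Atf4, as did 5 of the 8 degradation genes, led by Syvn1 (1.79-fold) and Herpud1 (1.55-fold). Of the sensors, Eif2ak3 was highest in replicate 1 and Ern1 in replicate 4 (pair mean 147 CPM, against 115 CPM in replicate 1), both passing, and Atf6 did not pass (edgeR adjusted p = 0.245). None of the 4 tested effectors passed. Of the members with an ERSE in the promoters printed above, Calr, Canx, Creld2, Pdia6 and Syvn1 passed and Derl3 did not, and Herpud1, with the ERSE-II, passed. Os9 was the flattest member, its pair means differing by 1.07-fold.

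**Figure D3:**
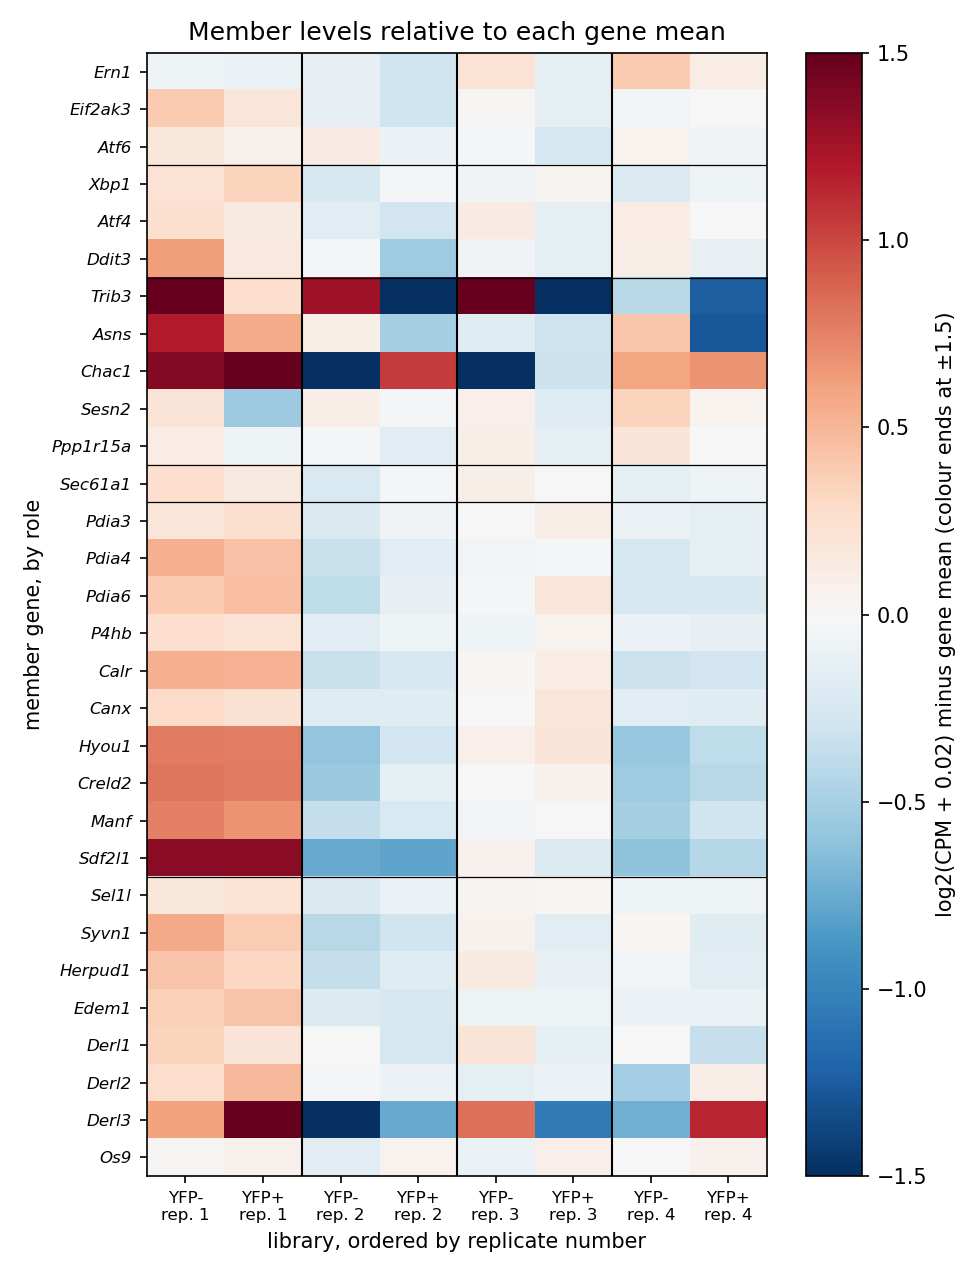
Level of each of the 30 members in each library as log2(CPM + 0.02) minus the gene's mean over 8 libraries; red is above and blue below the mean, columns are ordered by replicate number and rows by role. The 2 columns of replicate 1 are red through the block of folding genes, most strongly for Sdf2l1, Hyou1, Creld2 and Manf, whereas neighbouring YFP- and YFP+ columns of one number look alike there.

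Hspa5 and Hsp90b1, which encode BiP and the ER Hsp90, followed the same order, with pair means of 1268 and 1049 CPM in replicate 1 and at most 902 and 833 CPM in the others. Over the other pathway genes the replicate number passed for 26 of 135, and replicate 1 was highest in both fractions for 47. The shares over all tested genes were 9.2% and 9.53%. By role the first count was 8 of 25 for the other chaperones and oxidoreductases, 9 of 32 for the stress regulators and 1 of 18 for the other degradation genes. Of the 17 early-response genes 9 passed, and in 0 of the 17 was replicate 1 the highest in both fractions.

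Some markers of blood cells differed between replicate numbers as well. Ptprc, which encodes CD45, had 5.66 and 6.22 CPM in the YFP- and YFP+ libraries of replicate 1 and 0.535 to 1.74 CPM in the other 6. The summed level of 8 haematopoietic markers, none at 0 throughout, was 25.3 and 24.0 CPM in replicate 1 and ran from 12.6 to 24.7 CPM elsewhere. In this list the replicate number passed for 2 of 5 tested genes, Ptprc and Cd68. Cd68, a macrophage marker, was highest in replicate 3, with a pair mean of 9.81 CPM against 7.84 CPM in replicate 1. Plasma cells are secretory blood cells with a strong unfolded protein response. Of 10 plasma cell markers, with Igkc at 0 in every library, the sum was 547 and 581 CPM in replicate 1, and 540.5 CPM in YFP- replicate 3, and 301 to 414 CPM in the others. Txndc5, which is also among the other chaperones and oxidoreductases, gave 193 to 246 CPM of this sum in each library. The sum is therefore not a measure of plasma cell RNA alone. Igha, the constant region of IgA, had 209.9, 51.7, 212 and 129 CPM in YFP- replicates 1 to 4, where replicates 1 and 3 were level. In YFP+ it had 249, 21.2, 94.3 and 136 CPM, where replicate 1 was the highest. For the plasma cell list 0 of 8 tested genes passed the edgeR test of the replicate number. Of the other marker lists, it passed for 7 of 8 smooth muscle genes, 5 of 9 mitochondrially encoded genes, 2 of 6 endothelial genes, 2 of 10 stromal genes and none of the epithelial, glial or goblet and Paneth cell genes, and in at most 2 genes of any of these lists was replicate 1 the highest in both fractions. The summed goblet and Paneth cell markers were highest in YFP- replicate 2, at 45.9 CPM, and were 6.81 and 2.20 CPM in replicate 1. The part of blood cell RNA and of these lists in the replicate 1 levels was not tested.

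**Figure D4:**
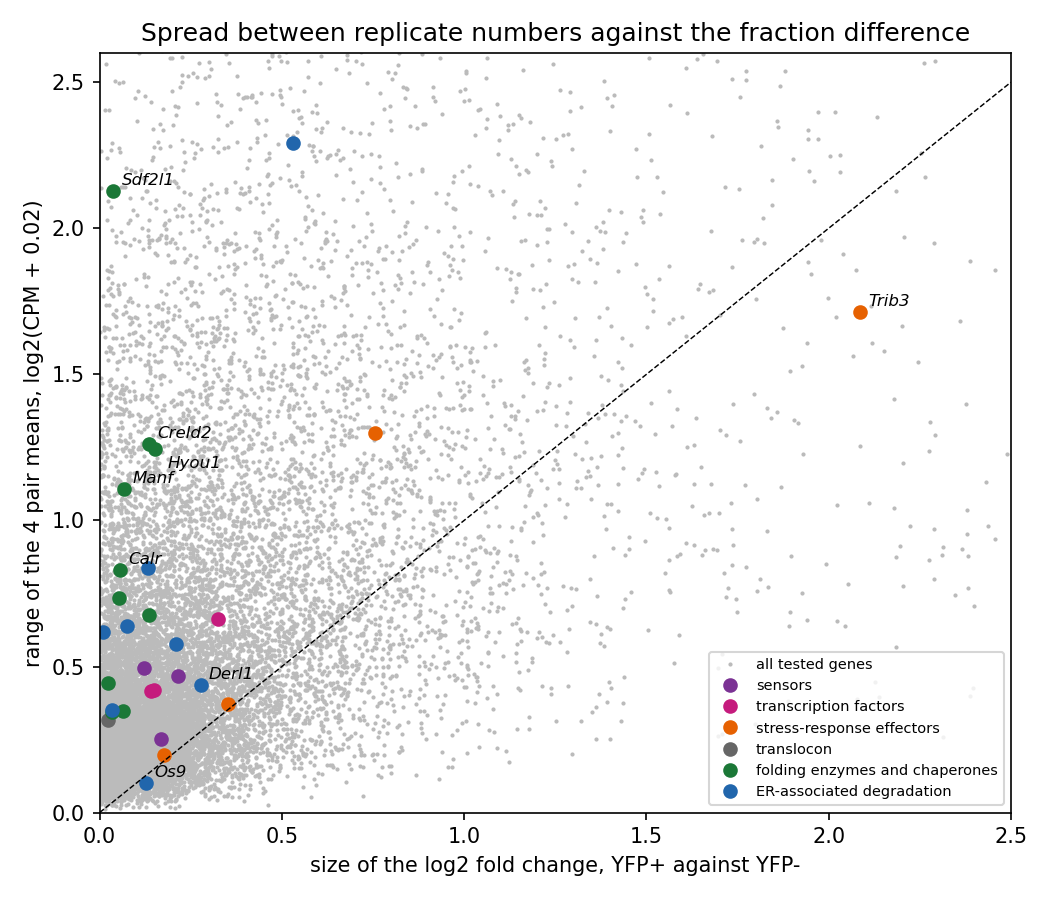
Range of the 4 pair means, in log2(CPM + 0.02), against the size of the log2 fold change between the fractions, for all tested genes (grey) and the members (coloured by role); the dashed line marks equal values, and 517 genes lie outside the axes. Sdf2l1, Hyou1, Creld2, Manf and Calr lie far above the line at fold changes near 0, and Trib3 and Os9 lie below it.

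The range of the 4 pair means exceeded the size of the fraction difference in 27 of 29 tested members and in 13519 of 16354 genes, so this by itself did not set the members apart. The median range was 0.58 on the log2 scale for the members and 0.42 for all genes, and at a mean of at least 10 CPM it was 0.47 and 0.27. Low counts widen such a range. Without both libraries of replicate 1, the members that passed between the fractions were Ern1 (log2 fold change -0.28) and Derl1 (-0.32).

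Levels over the 8 libraries were compared for the 3 transcription factor genes and 151 genes of the pathway and early-response lists, as a description of libraries that share the pairing. Xbp1 was most like Ubxn4 (Pearson r of log2 CPM 0.97), Alg2 (0.96) and Creb3l2 (0.95). Atf4 was most like Ero1lb (0.94), Egr2 (0.92) and Slc7a5 (0.90). Ddit3 was most like Ero1lb (0.95), Mars (0.89), whose exons overlap its own on the opposite strand, and Dnajb9 (0.88).

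In the authors' deposited table, 3 of 30 members had an adjusted p under 0.05, beside 9.36% of 18748 genes. In the authors' deposited table these were Derl1 (log2 fold change -0.269, adjusted p 0.0178), Trib3 (-2.101, adjusted p 0.0155) and Ppp1r15a (-0.168, adjusted p 0.0112). The authors' deposited table gave 0.0527 for Ern1 and 0.0707 for Ddit3, on the other side of the threshold from the edgeR fit.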

How the data were processed

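Raw counts per gene in 8 libraries were deposited by the authors, without normalisation, beside their log2 fold changes and adjusted p-values of YFP+ over YFP-. STAR 2.7.3a, DESeq2, featureCounts 2.0.1, cutadapt 3.4 and the build GRCm38 (mm10) are named, without their settings, per the submitters' processing notes. How strand was treated is not given in the sources used here. Totals ran from 23272858 to 29829232 counts per library.

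From the counts, edgeR 4.0.16 in R 4.3.3 gave the main results: its expression filter, TMM scaling and the robust quasi-likelihood F test, blocked on the replicate number, with Benjamini-Hochberg adjustment and a threshold of 0.05. Numbers were taken as pairs because same-numbered libraries deviated together (r of 0.38 to 0.64) and because DESeq2 1.42.0 with the number matched the deposited fold changes to a median of 0.000256, against 0.0499 without it. No label says what a number shares or that libraries came from separate mice, so p-values measure only the spread of these samples, possibly technical. CPM use TMM-scaled totals of tested genes. The SE is the absolute log2 fold change over the square root of F. Exon lengths are from GENCODE M21 and promoters from RefSeq (GRCm38.p6). Alternatives were no block, RLE scaling, other filters, DESeq2, limma-voom (limma 3.58.1) and removal of libraries, and the test of the replicate number was added after seeing the data.

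The members and gene lists were chosen with earlier results of these data known. Every member is accounted for. Of the other pathway genes, up to 2 called genes per direction and role were given with values, the other called ones by symbol alone, and the most abundant gene where none was called. The library values of Hyou1, Sdf2l1, Sesn2 and Os9, and the pair means of Hspa5, Hsp90b1, Ptprc, Igha and Cd68, were chosen after their values were seen.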

Additional observations from a re-analysis of the deposited data

Results flagged for a closer look

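Each member was looked at in each fraction, 60 sets of 4 library values. In 3 of them 1 library lay far from the rest, which is the number that chance gives at about 1 set in 20 for independent sets. In all 3 it was YFP+ replicate 1, on the high side, with 0.819 CPM for Trib3, 17.2 CPM for Sdf2l1 and 102 CPM for Herpud1. The sets share libraries and so are not independent. YFP- replicate 1 was also the highest of its group for Sdf2l1 (17.2 CPM) and Herpud1 (110 CPM), but not for Trib3 (1.99 CPM).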

How the results depend on the processing

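With no replicate block, taking the pairing out of the fit, 0 members passed lower, all genes gave 150 higher and 547 lower, and the other pathway genes 4 lower (Atf3, Vldlr, Psat1 and Gpt2). RLE scaling, no filter, DESeq2 and limma-voom with the block each called 5 members lower, and the filter of 1 CPM in 4 libraries called 4, because Trib3 was no longer tested. Leaving out libraries, singly without the block or by number with it, called 0 to 3 members lower. With the block these were Ern1 and Derl1 without replicate 1, Ern1, Ppp1r15a and Derl1 without replicate 2, Ddit3 without replicate 3, Trib3 without replicate 4. Without the block Trib3 passed when YFP- replicate 4 (adjusted p = 0.0420) or YFP+ replicate 1 (0.0378) was left out, and no member passed in the other 6 removals. Over all genes the same removals gave 88 to 500 higher and 339 to 1126 lower, and over the other pathway genes 0 to 1 higher (Prkcsh, without replicate 1) and 4 to 8 lower. With no filter 2 other pathway genes passed as higher, Sars and Bak1. The called members kept their direction in every alternative run. Their adjusted p reached 0.742 (Ern1), 0.685 (Ddit3), 0.237 (Trib3), 0.550 (Ppp1r15a) and 0.502 (Derl1).

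Of 519 member values under the alternatives, 475 kept their direction and 44 turned over, in 16 members that passed in none of the designs with all libraries. Edem1 turned to -0.000404 with the filter of 1 CPM in 4 libraries. The log2 fold changes with libraries left out ran, for Eif2ak3 from -0.21 to 0.00801, Sec61a1 from -0.045 to 0.12, Pdia3 from -0.0075 to 0.15, Pdia4 from -0.12 to 0.27, Pdia6 from -0.012 to 0.32, P4hb from -0.037 to 0.14, Calr from -0.14 to 0.28, Canx from -0.052 to 0.15, Hyou1 from -0.17 to 0.49, Creld2 from -0.19 to 0.49, Manf from -0.22 to 0.38, Sdf2l1 from -0.73 to 0.64, Sel1l from -0.036 to 0.11, Syvn1 from -0.32 to 0.059, Herpud1 from -0.22 to 0.067, Edem1 from -0.15 to 0.16. These ranges pool removals by number with the block and single removals without it, which leave 1 number in only 1 fraction. The median log2 fold change of the members was 0.139 without YFP- replicate 1 and -0.183 without YFP+ replicate 1. In the removals by number it ran from 0.00856 to 0.0265. The cause of the turns was not tested. Trib3, Derl3 and Chac1 are limited by their low counts.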
